A study of Mus musculus with 16 samples.

Results

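The replication-dependent histone genes were followed at the mRNA level in cultured mouse neural stem cells. They were chosen by symbol, taking every gene named as a member of the Hist1, Hist2, Hist3 or Hist4 groups or by the newer H1f, H2ac, H2bc, H3c and H4c names, and 69 of the 57132 genes in the count files met the rule. The members were 6 genes of class H1, 20 of H2A, 18 of H2B, 12 of H3 and 13 of H4. RefSeq places 55 of them on chromosome 13, 10 on chromosome 3, 2 on chromosome 11 and 1 on chromosome 6, and 1 (Hist1h2ap) matched no single entry. The group was proposed with earlier results on the difference between the batches in view, so that difference is given below as a description, without a test.

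Total RNA was sequenced in 12 libraries of neural stem cells, all labelled GF and said by the series title to be in self-renewing conditions. In batch 2, 3 libraries were labelled gRNA (gRNA libraries 4 to 6) and 3 control (control libraries 4 to 6), and in batch 1 likewise 3 gRNA (gRNA libraries 1 to 3) and 3 control (control libraries 1 to 3). The series title names the agent TAPIR, and the labels give neither its target, nor the guide sequence, nor the strain of the mice or the source of the cells. The same kits are named for all 12 libraries, the RNeasy Mini Kit and a stranded total RNA preparation with ribosomal RNA depletion. The libraries held 8414028 to 19454390 read counts in genes. No 2 of them were identical among 66 pairs. The labels do not tell whether replicates were grown apart, so p-values measure the spread between these samples only, which may be technical. All 9 neural stem cell markers had counts in both batches, among them Sox2, a transcription factor, at 146.1 ± 24 CPM in batch 2 and 154 ± 23.5 CPM in batch 1 (CPM, counts scaled to library size, SD, n = 6 each); Prom1, a membrane protein gene, had 0.284 ± 0.344 CPM in batch 2 and 5.62 ± 1.5 CPM in batch 1.

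Histones package DNA: 4 core histones, H2A, H2B, H3 and H4, form the nucleosome, and the linker histone H1 binds where the DNA enters and leaves it. Most of this protein is made in S phase from clustered, intronless genes, which are transcribed together under the coactivator NPAT. Their mRNAs end in a conserved stem-loop in place of a poly(A) tail, are cut by a machinery that includes the U7 small nuclear RNA, are bound by the stem-loop binding protein SLBP and are degraded at the end of S phase. Some genes of these clusters are also known to give polyadenylated mRNAs, which are found in cells that have stopped dividing. A separate set of histone genes outside the clusters, such as H3f3b and H2afz, is expressed through the whole cell cycle from ordinary polyadenylated mRNAs.

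The promoters of the members differed by class. RefSeq promoter windows (GRCm38.p6, 250 bases before to 50 after the annotated start) covered 61 of the 69 members in 62 windows, 18 of which overlapped the window of another member. No window was used for Hist1h2aj, Hist1h2al, Hist1h2ap, Hist1h2bc, Hist1h3a, Hist1h3f, Hist2h2be and Hist2h4. Of those windows, 53 (85.5%) held CCAAT, the motif bound by NF-Y, on either strand, against 37.4% of all 32851 windows. All windows of H1 (6 of 6), H2A (17 of 17), H2B (17 of 17) and H3 (10 of 10) held it, and 3 of 12 H4 windows did. TATAAA was in 35 windows (56.5%), against 13.6% of all windows. The octamer ATTTGCAT, bound by POU factors such as Oct1, was in 7 of 17 H2A and 7 of 17 H2B windows and in no H1, H3 or H4 window, against 1.74% of all. On the sense strand alone it was in 7 H2B and 0 H2A windows. Since some windows overlap, the same site may be counted in both classes. AAACACA, known as the H1 box, was in 5 of 6 H1 windows, 2 of 17 H2A and 2 of 17 H2B windows and no H3 or H4 window, against 7.18% of all. None of the searched motifs contains another, but sites of different motifs can share bases, and this was not checked.

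For 4 classes the 160 bases before the start are shown for a pair of members, one that was less than 4-fold lower, or higher, in batch 2 and one that was at least 4-fold lower, since this split within a class is the main pattern described below. The pairs were chosen with their values known, among members with a window. Capitals mark the 4 motifs named above, in either orientation. The H1 pair was Hist1h1c (RefSeq H1f2) at chr13:23738647-23738806 (plus strand) and Hist1h1a (H1f1) at chr13:23763508-23763667 (plus strand).
Hist1h1c: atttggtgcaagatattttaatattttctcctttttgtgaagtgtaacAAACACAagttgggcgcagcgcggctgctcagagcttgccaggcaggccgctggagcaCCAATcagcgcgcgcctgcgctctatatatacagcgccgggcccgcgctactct
Hist1h1a: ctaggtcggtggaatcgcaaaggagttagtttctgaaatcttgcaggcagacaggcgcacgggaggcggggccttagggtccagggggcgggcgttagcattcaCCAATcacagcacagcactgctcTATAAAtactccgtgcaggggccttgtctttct
The H2A pair was Hist3h2a (H2aw) at chr11:58954525-58954684 (plus strand) and Hist1h2ak (H2ac15) at chr13:21753913-21754072 (minus strand).
Hist3h2a: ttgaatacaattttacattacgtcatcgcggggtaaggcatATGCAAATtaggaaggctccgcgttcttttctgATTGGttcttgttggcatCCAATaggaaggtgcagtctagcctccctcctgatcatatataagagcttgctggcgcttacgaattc
Hist1h2ak: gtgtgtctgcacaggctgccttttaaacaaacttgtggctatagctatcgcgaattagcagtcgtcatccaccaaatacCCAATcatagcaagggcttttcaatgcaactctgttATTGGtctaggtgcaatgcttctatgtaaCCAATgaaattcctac
The H2B pair was Hist3h2ba (H2bu2) at chr11:58948751-58948910 (plus strand) and Hist1h2bm (H2bc14) at chr13:21721884-21722043 (plus strand).
Hist3h2ba: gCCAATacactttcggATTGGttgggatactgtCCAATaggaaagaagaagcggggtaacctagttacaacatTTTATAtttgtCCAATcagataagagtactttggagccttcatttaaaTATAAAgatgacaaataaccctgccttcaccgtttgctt
Hist1h2bm: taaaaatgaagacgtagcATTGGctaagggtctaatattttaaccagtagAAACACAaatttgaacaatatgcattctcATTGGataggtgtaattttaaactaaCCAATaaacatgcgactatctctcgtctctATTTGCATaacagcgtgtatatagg
The H4 pair was Hist1h4i (H4c9) at chr13:22041363-22041522 (minus strand) and Hist1h4d (H4c4) at chr13:23581408-23581567 (plus strand).
Hist1h4i: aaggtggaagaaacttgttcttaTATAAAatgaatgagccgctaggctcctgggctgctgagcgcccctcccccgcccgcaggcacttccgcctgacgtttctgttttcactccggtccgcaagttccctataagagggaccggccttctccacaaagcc
Hist1h4d: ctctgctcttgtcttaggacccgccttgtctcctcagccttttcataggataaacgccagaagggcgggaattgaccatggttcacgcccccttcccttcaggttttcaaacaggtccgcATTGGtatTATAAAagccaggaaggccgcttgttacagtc
Both genes of the H1, H2A and H2B pairs held CCAAT in these stretches. In the H4 pair it was in Hist1h4d and not in Hist1h4i. Over all windows, CCAAT was in 4 of 5 windows of members that were less than 4-fold lower, or higher, and in 38 of 46 windows of members that were at least 4-fold lower, and TATAAA was in 2 of 5 and in 30 of 46 windows of the same groups.

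Levels of the members differed strongly between the batches. Of the 69 members, 5 had no count in any library and 8 more were too low to be tested, which left 56. Of these, 48 were at least 4-fold lower in batch 2 than in batch 1 (log2 fold change at or under -2), against 12.1% of the 17704 genes tested, a share from which nothing is read here because the group was proposed with this contrast known. The median log2 fold change of the 56 members was -4.68, which is 25.7-fold lower, and that of all genes was -0.03. In all 48, every batch 2 library was below every batch 1 library, a pattern seen in 24.3% of all genes tested. In these bulk samples, fewer cells of a type and less RNA per cell cannot be told apart, and the labels do not say what differed between the batches.

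**Figure D1:**
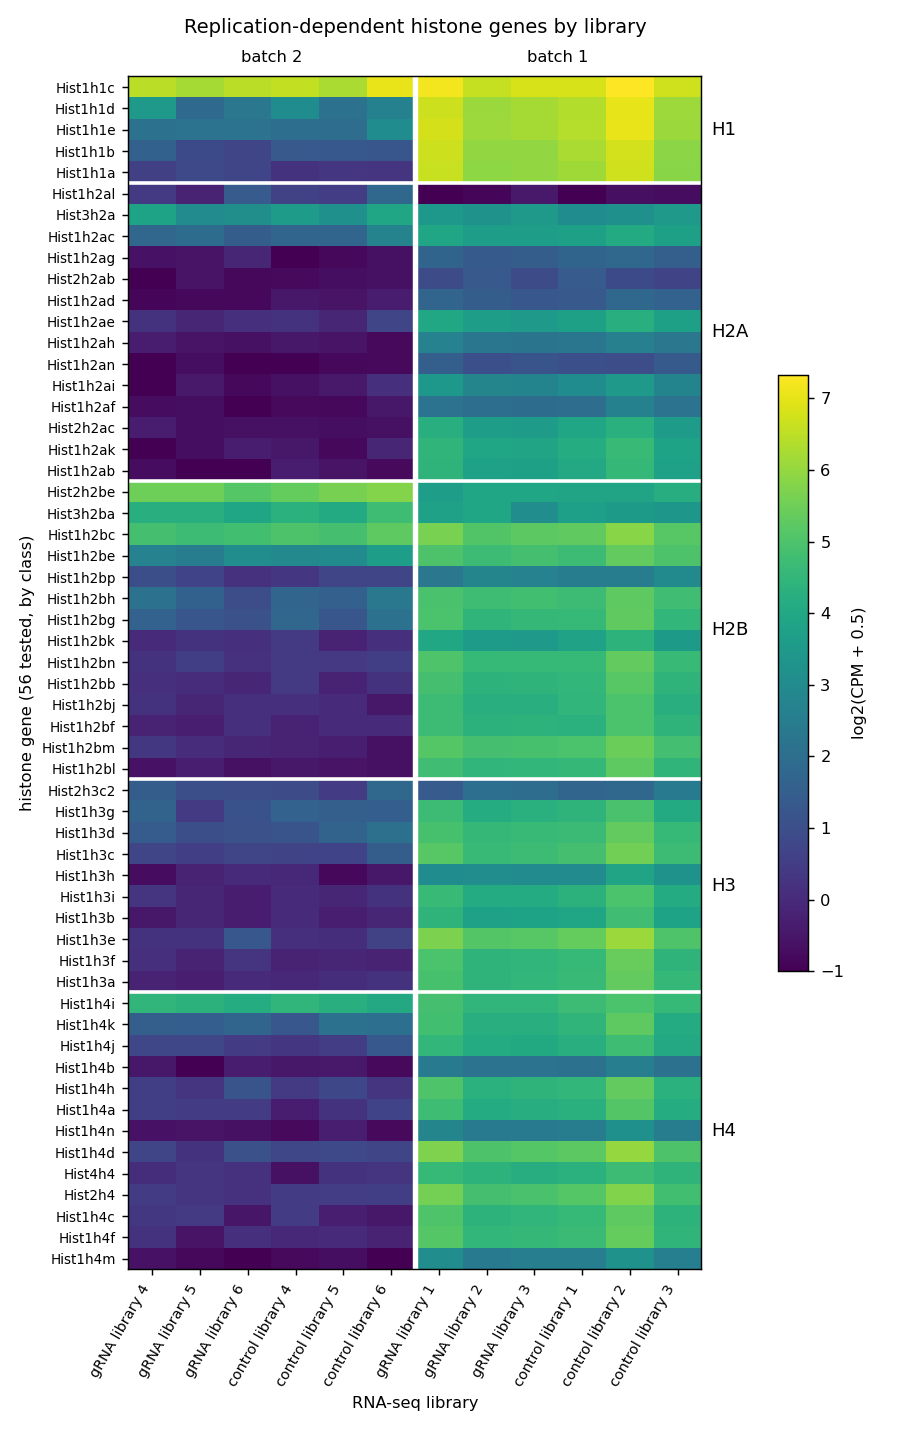
Level of each of the 56 tested histone genes (rows, grouped by class and ordered by the difference between batches) in each of the 12 RNA-seq libraries (columns), as log2(CPM + 0.5). In every class 1 to 3 rows keep a like colour in both batches or are brighter in batch 2, while the other rows are darker in all 6 libraries of batch 2 than in batch 1.

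The 13 members that were not tested had between 0 and 47 counts over the 12 libraries together. Those without a count were Hist2h2aa1, Hist2h2aa2, Hist2h2bb, Hist2h3b and Hist2h3c1. Reads without a unique alignment were not counted to genes, and many histone genes are near-identical. A count of 0 therefore need not mean that the mRNA was absent. The others were Hist1h1t, a linker histone of male germ cells, with 47 counts, Hist1h2bq with 33, Hist1h2aj with 31, Hist1h2br with 27, Hist1h2ao and Hist1h2ba with 7 each, Hist1h2aa with 2 and Hist1h2ap with 1. Hist1h2ba encodes a testis H2B. RefSeq lists Hist1h2aj and the tested Hist1h2al as pseudogenes under their newer names.

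Summed over its members, every class was lower in batch 2. The H1 members together had 105.2 ± 22.8 CPM in batch 2 and 453.6 ± 117.9 CPM in batch 1 (SD, n = 6 each, also below), a ratio of 0.232. The H2A members had 17.8 ± 5.26 CPM in batch 2 and 110.9 ± 20.5 CPM in batch 1, a ratio of 0.16. The H2B members had 111.4 ± 17.6 CPM in batch 2 and 330.3 ± 61.9 CPM in batch 1, a ratio of 0.337. The H2B ratio was the highest of the 5 classes with Hist2h2be, a member that was higher in batch 2, and was 0.212 without it.
The H3 members had 10.3 ± 2.41 CPM in batch 2 and 227.6 ± 61.2 CPM in batch 1, a ratio of 0.0454, which is 22-fold lower. The H4 members had 29 ± 1.75 CPM in batch 2 and 286.2 ± 77 CPM in batch 1, a ratio of 0.102. In no class did the 6 libraries of batch 2 overlap those of batch 1. H3 and H4 were the classes with the lowest ratios, and H2A and H2B differed from each other. Single members weighed on these ratios. Hist1h1c held 92 of the 105.2 CPM of H1 in batch 2 and 121.9 of the 453.6 CPM in batch 1. Ratios without single members were not computed for classes other than H2B, so the order is not read as a trait of whole classes.

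**Figure D2:**
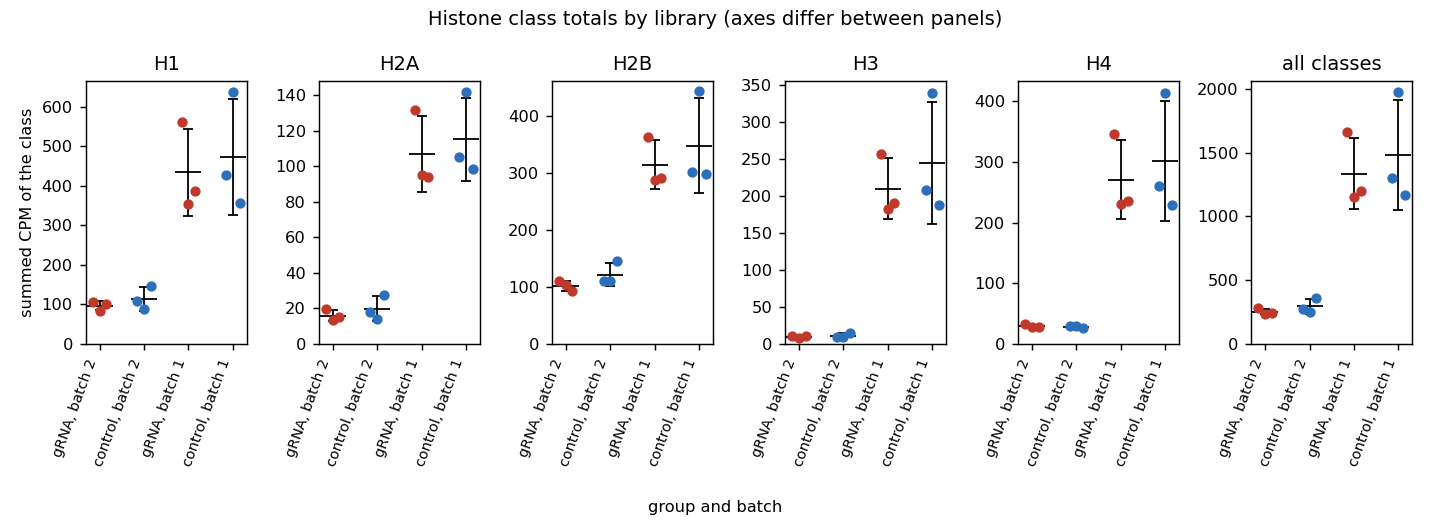
Summed CPM of the members of each histone class and of all classes, per library, in gRNA (red) and control (blue) libraries of batch 2 and batch 1. Points are libraries, and black marks are the mean with SD (n = 3). Batch 2 lies below batch 1 in every panel, and within batch 1 one gRNA and one control library stand above the rest.

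The classes came closer together when single genes were compared. The median log2 fold change of batch 2 against batch 1 was -4.34 over the 5 tested H1 members, -4.5 over 14 H2A, -4 over 14 H2B, -5.14 over 10 H3 and -5.06 over 13 H4 members. In every class 1 to 3 members were less than 4-fold lower, or higher, in batch 2, and these are called retained below. The term also covers the pseudogene Hist1h2al, which had only 8 counts in batch 1 and 120 in batch 2. H1, H3 and H4 had 1 each, H2A 2 and H2B 3. Those 8 members took 78.5% to 81.4% of the histone reads of a library in batch 2 and 14.5% to 17.7% in batch 1. Their summed level was 218.7 ± 35.4 CPM in batch 2 and 228.3 ± 36.2 CPM in batch 1. The sum of the other 48 was 55.1 ± 10.7 CPM in batch 2 and 1180 ± 300.2 CPM in batch 1, which is 21.4-fold lower.

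**Figure D3:**
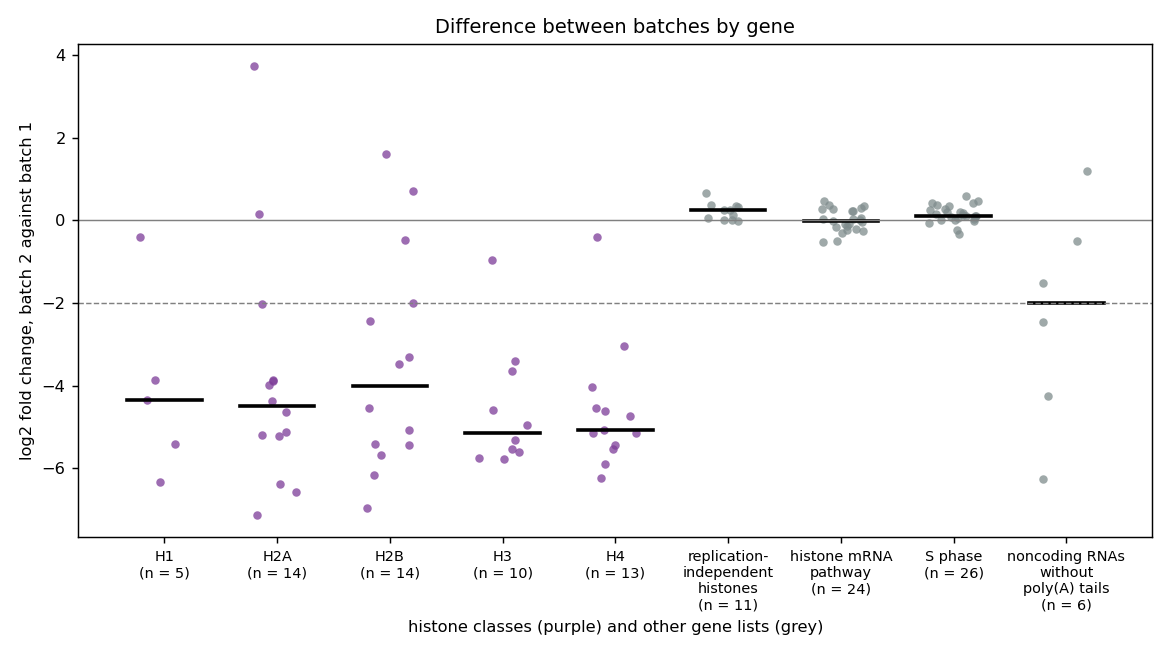
Log2 fold change of batch 2 against batch 1 for each tested gene of the 5 histone classes (purple) and of 4 other gene lists (grey). Black bars are medians, the dashed line is at -2, and n is the number of genes. Class medians lie between -5.14 and -4, and those of replication-independent histones, histone mRNA pathway genes and S phase genes between -0.01 and 0.24.

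Among the tested H1 members, Hist1h1c (ENSMUSG00000036181) stood apart from the rest. It had 87.4, 74, 89.1 CPM in the gRNA libraries and 93.3, 77, 131.1 CPM in the control libraries of batch 2, against 143.6, 95.9, 112.5 CPM in the gRNA and 113.7, 160.6, 104.8 CPM in the control libraries of batch 1. The batches overlapped, and the log2 fold change was -0.41 (SE 0.14). Hist1h1a (ENSMUSG00000049539) had 1.01, 1.27, 1.16 CPM in the gRNA and 0.677, 0.74, 0.728 CPM in the control libraries of batch 2, against 98.5, 59.6, 63.2 CPM in the gRNA and 70.6, 106.7, 56.9 CPM in the control libraries of batch 1. Its lowest batch 1 library was far above its highest batch 2 library, and the fit put it 80.3-fold lower (log2 fold change -6.33, SE 0.23). Hist1h1d averaged 5.93 ± 2.82 CPM in batch 2 and 87.3 ± 24.4 CPM in batch 1. Hist1h1e averaged 4.45 ± 1.69 CPM in batch 2 and 89.8 ± 27 CPM in batch 1. The 4 tested H1 members other than Hist1h1c thus had 56.9 CPM or more in every batch 1 library and 10.6 CPM or less in every batch 2 library.

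In class H2A, the largest difference of all members was that of Hist1h2ab (ENSMUSG00000061615), a core H2A gene. It had 0.112, 0, 0 CPM in the gRNA and 0.301, 0.185, 0.0728 CPM in the control libraries of batch 2, against 20.9, 13.1, 12.9 CPM in the gRNA and 15.9, 23.1, 13.2 CPM in the control libraries of batch 1. It was close to undetected in batch 2, 139.8-fold lower than in batch 1 by the fit (log2 fold change -7.13, SE 0.38). Hist1h2ak averaged 0.189 ± 0.161 CPM in batch 2 and 17.6 ± 4.37 CPM in batch 1, and Hist2h2ac 0.161 ± 0.0593 CPM in batch 2 and 14.5 ± 3.37 CPM in batch 1. Both were likewise under 1 CPM in every batch 2 library. Hist1h2ac lay just past the threshold with 3.36 ± 1.4 CPM in batch 2 and 13.6 ± 1.86 CPM in batch 1 (log2 fold change -2.02).

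Hist3h2a (ENSMUSG00000078851), an H2A gene outside the large clusters, had like levels in both batches. It had 13.9, 7.7, 8.25 CPM in the gRNA and 11.5, 8.57, 14.9 CPM in the control libraries of batch 2, against 10.5, 9.23, 10.9 CPM in the gRNA and 7.79, 8.5, 10.8 CPM in the control libraries of batch 1 (log2 fold change 0.16, SE 0.18). Hist1h2al (ENSMUSG00000091383), the transcribed pseudogene, was detected mostly in batch 2, with 120 counts there and 8 in batch 1. Its levels were 0.838, 0.364, 2.1 CPM in the gRNA and 1.05, 0.924, 2.99 CPM in the control libraries of batch 2, and at most 0.239 CPM in batch 1. Batch 2 was above batch 1 in all libraries, with a log2 fold change of 3.73 (SE 0.66) that rests on those few counts.

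Class H2B held the member with the clearest higher level in batch 2, Hist2h2be (ENSMUSG00000068854). It had 44.5, 44.3, 34.5 CPM in the gRNA and 40.6, 48.4, 54.6 CPM in the control libraries of batch 2, against 12.2, 14.5, 14.6 CPM in the gRNA and 14, 14.1, 17.7 CPM in the control libraries of batch 1. The batches did not overlap, and batch 2 was 3.05-fold higher (log2 fold change 1.61, SE 0.11). Hist3h2ba (ENSMUSG00000056895) was also higher in every batch 2 library, at 19 ± 3.89 CPM in batch 2 and 11.6 ± 2.33 CPM in batch 1 (log2 fold change 0.71, SE 0.16). With Hist1h2al these were the 3 members whose batch 2 libraries all lay above batch 1, against 17.3% of all genes tested. Hist1h2bc (ENSMUSG00000018102) had 28.7, 25.9, 27.5 CPM in the gRNA and 31.9, 28.8, 38.1 CPM in the control libraries of batch 2, against 49.7, 33, 37.4 CPM in the gRNA and 39, 57, 35.1 CPM in the control libraries of batch 1. It overlapped between the batches, at a log2 fold change of -0.47 (SE 0.13).

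The other 11 tested H2B genes were at least 4-fold lower. Hist1h2bl averaged 0.195 ± 0.0607 CPM in batch 2 and 25.7 ± 6.49 CPM in batch 1, and the fit put it 124.2-fold lower. Hist1h2bm averaged 0.432 ± 0.217 CPM in batch 2 and 32.5 ± 5.9 CPM in batch 1. Hist1h2be was nearest to the threshold, with 7.67 ± 2.48 CPM in batch 2 and 30.6 ± 5.01 CPM in batch 1 (log2 fold change -2.01), so no H2B gene lay between Hist1h2be and Hist1h2bc.

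**Figure D4:**
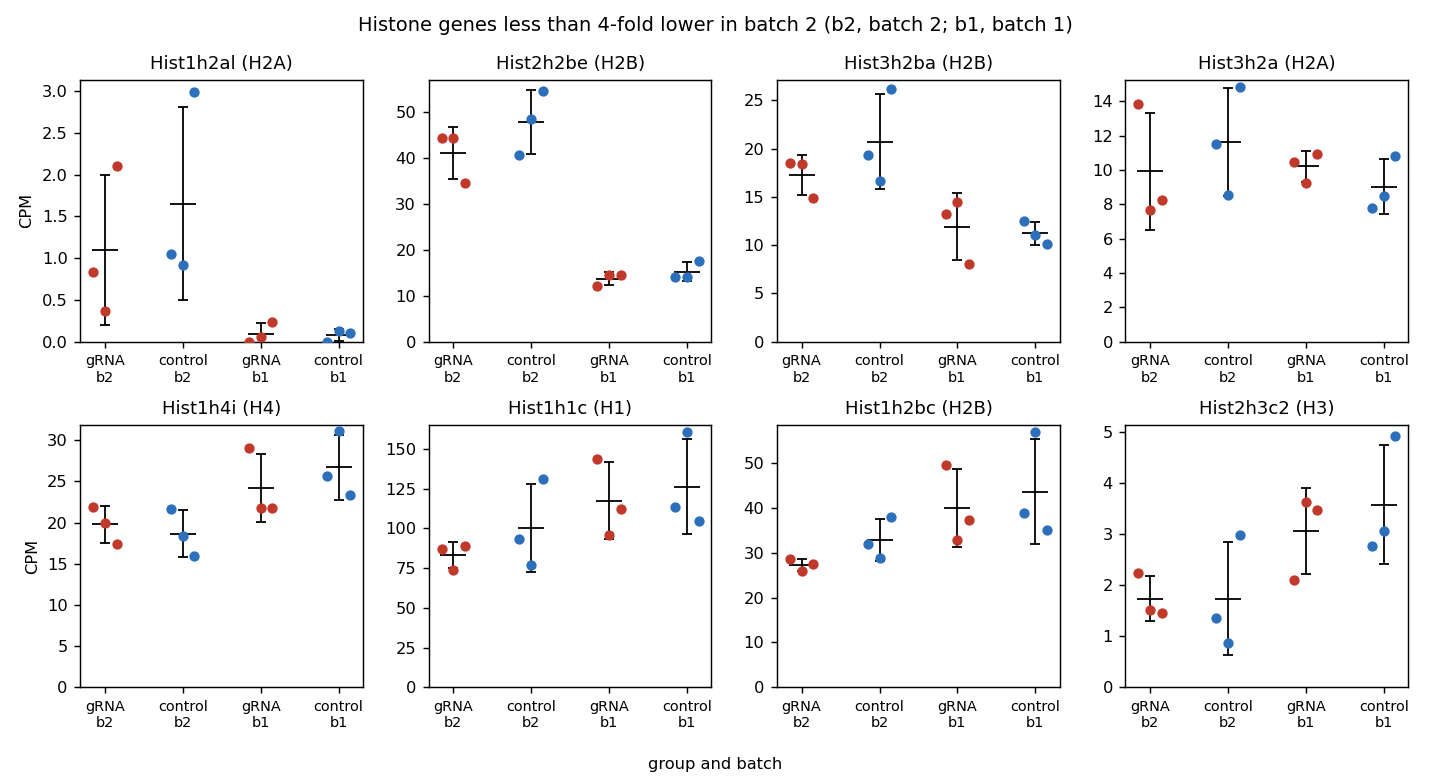
CPM of the 8 histone genes that were less than 4-fold lower, or higher, in batch 2, in gRNA (red) and control (blue) libraries of batch 2 (b2) and batch 1 (b1). Points are libraries, and black marks are the mean with SD (n = 3). Hist2h2be lies at 34.5 to 54.6 CPM in batch 2, above all batch 1 libraries, while Hist1h1c, Hist1h2bc, Hist1h4i, Hist2h3c2 and Hist3h2a overlap between the batches.

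Class H3 was low in batch 2 almost throughout. Hist1h3e had 0.67, 0.667, 1.88 CPM in the gRNA and 0.602, 0.555, 1.02 CPM in the control libraries of batch 2, against 50.9, 33.8, 35.8 CPM in the gRNA and 40.6, 67.6, 32.5 CPM in the control libraries of batch 1 (log2 fold change -5.6, SE 0.3). All 6 batch 2 libraries were below the lowest of batch 1. Hist1h3c averaged 1.3 ± 0.475 CPM in batch 2 and 31.2 ± 8.51 CPM in batch 1, Hist1h3d 2.23 ± 0.842 CPM in batch 2 and 27.6 ± 6.22 CPM in batch 1, and Hist1h3g 2.06 ± 0.684 CPM in batch 2 and 21.6 ± 5.3 CPM in batch 1. Hist2h3c2 (ENSMUSG00000081058) was the single H3 member less than 4-fold lower. It had 2.23, 1.52, 1.45 CPM in the gRNA and 1.35, 0.863, 2.99 CPM in the control libraries of batch 2, against 2.1, 3.63, 3.46 CPM in the gRNA and 2.76, 3.05, 4.91 CPM in the control libraries of batch 1. The batches overlapped, with a log2 fold change of -0.95 (SE 0.28).

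Among the H4 genes, which encode a near-invariant protein, Hist1h4i (ENSMUSG00000060639) was the single one that was not at least 4-fold lower. It had 22, 20, 17.5 CPM in the gRNA and 21.7, 18.4, 16 CPM in the control libraries of batch 2, against 29, 21.8, 21.8 CPM in the gRNA and 25.6, 31.1, 23.4 CPM in the control libraries of batch 1. The batches overlapped narrowly, at a log2 fold change of -0.4 (SE 0.12). Hist1h4d had 1.17, 0.667, 1.59 CPM in the gRNA and 1.2, 1.29, 1.17 CPM in the control libraries of batch 2, against 52.5, 31.4, 34.6 CPM in the gRNA and 37.5, 64.3, 31.5 CPM in the control libraries of batch 1 (log2 fold change -5.14, SE 0.24). The batches were far apart for this gene. Hist2h4 averaged 0.841 ± 0.121 CPM in batch 2 and 37 ± 11 CPM in batch 1, Hist1h4f 0.457 ± 0.171 CPM in batch 2 and 27.7 ± 7.91 CPM in batch 1, and Hist1h4k 2.8 ± 0.781 CPM in batch 2 and 23.4 ± 8.09 CPM in batch 1.

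Few members lay near the threshold of -2. Just under it were Hist1h2be at -2.01 and Hist1h2ac at -2.02, and the nearest members above it were Hist2h3c2 at -0.95 and Hist1h2bc at -0.47. Of the 48 lower members, 45 were at -3 or under, 36 at -4 or under, 26 at -5 or under and 7 at -6 or under, and 29 had less than 1 CPM in every batch 2 library.

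Members that differed in this way were direct neighbours in the genome. In the gene order of RefSeq GRCm38.p6, Hist2h2be, with a log2 fold change of 1.61, stands between Hist2h2ac at -6.38 and Hist2h3c2 at -0.95. Hist1h4i, at -0.4, stands between Hist1h2bk at -4.53 and Hist1h2ag at -3.87. Hist1h1c, at -0.41, is followed by Hist1h3c at -4.59, and Hist1h2bc, at -0.47, is preceded by Hist1h2ac at -2.02. Hist3h2ba and Hist3h2a, both above -2, lie on either side of Trim17, a ubiquitin ligase gene. Genes less than 4-fold lower were thus present in the clusters on chromosome 13, chromosome 3 and chromosome 11.

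Genes whose products make, process and degrade histone mRNA differed less between the batches, and in both directions. All 24 listed pathway genes were tested, with a median log2 fold change of -0.01 and a range of -0.53 to 0.46, and none was at or under -2. The batches did not overlap for Npat and Tut7, lower in batch 2, and for Sympk and Mif4gd, higher in batch 2. Over all genes tested, 24.3% lay wholly lower and 17.3% wholly higher in batch 2, larger shares than the 2 of 24 in each direction here. Npat, the histone gene coactivator, had 114.1 ± 6.06 CPM in batch 2 and 140.9 ± 5.43 CPM in batch 1. Slbp, which binds the stem-loop, had 69.7 ± 9.8 CPM in batch 2 and 74.3 ± 9.37 CPM in batch 1. Lsm10 and Lsm11, subunits of the U7 particle, had log2 fold changes of 0.05 and 0.03, and Eri1, a nuclease that trims the histone mRNA end, of 0.01.
The 11 replication-independent histone genes had a median log2 fold change of 0.24 (range -0.02 to 0.67). H3f3b, which encodes H3.3, had 173.6 ± 17.6 CPM in batch 2 and 174.2 ± 45.5 CPM in batch 1, and H1f0, a linker histone of resting cells, had 150.6 ± 18.6 CPM in batch 2 and 94.9 ± 10.4 CPM in batch 1. Of the 26 S phase genes, 22 had log2 fold changes above 0, with a median of 0.11 and a range of -0.33 to 0.6. Over all genes tested, 52.2% were below 0. Mcm2, a subunit of the replicative helicase, had 246.7 ± 49.8 CPM in batch 2 and 228.9 ± 24.5 CPM in batch 1, and Pcna, the sliding clamp, 66.1 ± 7.48 CPM in batch 2 and 77.6 ± 13.9 CPM in batch 1.

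Other RNAs that carry no poly(A) tail were also lower in batch 2, though not all of them. Of 22 listed noncoding RNAs, 14 were found in the files and 6 of these were tested. The 14 together summed to 2.48 to 4.97 CPM in batch 2 and 20.5 to 43.2 CPM in batch 1, and Rmrp, Rnu11, Rnu7, Snora73a and Snora73b had no count in any library. Scarna2, a Cajal body RNA, held the largest part of the batch 1 sum, and none of the others averaged above 3.88 CPM there. Scarna2 had 0.271 ± 0.172 CPM in batch 2 and 20.7 ± 5.77 CPM in batch 1, a log2 fold change of -6.26. Rnu12, the U12 RNA of the minor spliceosome, was at -4.24, and Snord17, a nucleolar guide RNA, at -2.46. Scarna6 was at -1.52, Rny3, a Y RNA, at -0.5, and Rny1, another Y RNA, at 1.21. The share of reads counted to no feature was 8.83% to 12.7% in batch 2 libraries and 18.95% to 25.07% in batch 1 libraries. Such reads need not lie outside genes, since the counting settings are not known. The part of these differences in the histone levels was not tested. Although the labels name the same kits for both batches, a difference in how the libraries were prepared and a difference in the cells cannot be told apart here, for any histone level compared between the batches.

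Markers of other cell types also differed between the batches. The 5 astrocyte markers, all tested, summed to 42.6 to 206.1 CPM in batch 2 and 267 to 484.2 CPM in batch 1. Of these markers, 4 had log2 fold changes below 0 and 1 was above 0, at 1.69. The 5 oligodendrocyte markers (3 tested) summed to 124.9 to 261.4 CPM in batch 2 and 84.5 to 94.7 CPM in batch 1. The 4 microglial markers (2 tested) summed to 0.655 to 2.33 CPM in batch 2 and 2.92 to 6.57 CPM in batch 1. Of the 6 neuronal markers, all tested, 4 were at least 4-fold lower in batch 2, with log2 fold changes of -5.03 for Snap25, -4.47 for Syt1, -4.15 for Dcx and -3.64 for Rbfox3, while Tubb3 was at 2.34 and Map2 at -0.13. Map2 had 659.3 ± 52.8 CPM in batch 2 and 720.4 ± 116.7 CPM in batch 1, and the neuronal sums of 615.5 to 772.5 CPM in batch 2 and 645.6 to 957.1 CPM in batch 1 overlapped. Sums also overlapped between the batches for the 9 neural stem cell markers (all tested), the 4 endothelial and mural markers (3 tested) and the 4 fibroblast markers (1 tested). Single genes still differed. Of the 9 neural stem cell markers, 8 had log2 fold changes below 0 and 1 above (median -0.4, range -4.33 to 0.11). Over all genes tested, 52.2% were below 0. The tested endothelial and mural markers ranged from -4.96 to 0.34. No marker was at 0 in all libraries, and Dcn, a fibroblast proteoglycan gene, had no count in batch 1. Their part in the histone levels was not tested.

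Set against control within this design, the gRNA libraries showed no histone gene past the threshold. Over both batches, with batch as a term, 0 of 56 tested members passed an adjusted p of 0.05 (edgeR quasi-likelihood test with Benjamini-Hochberg adjustment), as did 0% of the 17704 genes tested. At an unadjusted p under 0.05 there were 0 members, against 1.3% of all genes, and DESeq2 also called 0 members. The median log2 fold change of the 56 was -0.16, and 49 were below 0, against 52.3% of all genes.
By class the medians were -0.12 for H1, -0.25 for H2A, -0.16 for H2B, -0.24 for H3 and -0.07 for H4. All 10 H3, 12 of 13 H4, 13 of 14 H2B, 10 of 14 H2A and 4 of 5 H1 members were below 0. None of these members passed the test.

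The members with the smallest p-values lay within the spread of the libraries. Hist1h2be averaged 6.38 ± 1.37 CPM in gRNA and 8.96 ± 2.9 CPM in control libraries of batch 2, and 28.8 ± 2.77 CPM in gRNA and 32.3 ± 6.8 CPM in control libraries of batch 1 (SD, n = 3 each). Its log2 fold change over both batches was -0.31 (SE 0.16, 95% interval -0.67 to 0.04), with an edgeR adjusted p of 0.9998. Hist1h3d (-0.34, SE 0.19), Hist2h2be (-0.19, SE 0.11) and Hist1h3a (-0.29, SE 0.19) followed, each with an interval that includes 0.
For Hist2h2be, the member with the higher level in batch 2, the 95% interval ran from -0.42 to 0.04. The median SE over the 56 members was 0.22 on the log2 scale.

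No member was called within a batch either. In batch 1, 0 of 55 tested members passed, against 0% of 16988 genes. The median was -0.14, 49 were below 0 (51.3% of all genes were), and none had an unadjusted p under 0.05 (0.865% of all genes). In batch 2, where 38 members were too low to be tested, 0 of 31 passed, against 0% of 15647 genes. The median was -0.21, and 21 were below 0 (49.7% of all genes). The 1 member with an unadjusted p under 0.05 (0.741% of all genes) was Hist1h1a, at 1.15 ± 0.134 CPM in gRNA and 0.715 ± 0.0334 CPM in control libraries of batch 2. Its groups did not overlap there, yet it lay near 1 CPM and its edgeR adjusted p was 0.9976 (log2 fold change 0.68, SE 0.28).
The difference of the gRNA effect between the batches passed for 0 of 56 members and 0% of 18279 genes. The median of that difference (batch 2 minus batch 1) was -0.05, and 31 members were below 0, against 48% of all genes. Unadjusted p-values under 0.05 were found for 3 members (1.29% of all genes), Hist1h2bm at 1.23 (SE 0.47), Hist1h2ag at 1.95 (SE 0.78) and Hist1h2ad at -1.66 (SE 0.63), all with an edgeR adjusted p of 0.9999. All 3 were under 1 CPM in every batch 2 library. DESeq2 called 0 members in each of these 3 comparisons too.

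Libraries of the same batch differed in their histone level. In batch 1, gRNA library 1 and control library 2 had the highest histone sums, 1659 CPM in gRNA library 1 and 1975 CPM in control library 2, while the other 4 libraries had 1149 to 1301 CPM. They were also the shallowest of batch 1, with 10515276 gene counts in gRNA library 1 and 8414028 in control library 2. The other 4 had 14301905 to 19454390. Both libraries had the lowest shares of batch 1 reads counted to no feature, 20.6% and 18.95% against 22.08% to 25.07%. The part of depth in their histone sums was not tested. Both were the top libraries for 46 of the 56 members, and control library 2 was the highest for 47. How often genes outside the members peaked in these libraries was not counted. In the 48 members that were at least 4-fold lower in batch 2, the median deviation from the batch 1 mean was 0.25 in gRNA library 1 and 0.52 in control library 2 on the log2(CPM + 0.5) scale. The 11 replication-independent histones deviated in the same libraries, by 0.2 in gRNA library 1 and 0.27 in control library 2. The S phase genes deviated by 0.16 in gRNA library 1 and 0.05 in control library 2. The 2 highest libraries thus carry opposite labels.

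The sign of the median gRNA difference changed when 1 library was left out. Without control library 2 the median over both batches was 0.01, with 27 of 56 members below 0, and in batch 1 alone it was 0.1, with 8 of 55 below 0. Without both gRNA library 1 and control library 2, a choice made after seeing the data, the median over both batches was -0.08, with 40 members below 0. No member was called in any of these fits by edgeR.

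In batch 2, control library 6 stood apart, with a histone sum of 360.9 CPM against 236.1 to 277.6 CPM in the other 5. It was the highest library for 24 of the 56 members. How often genes outside the members peaked in control library 6 was not counted. The sums of H1, H2A, H2B and H3 were highest in it, and that of H4, at 26.9 CPM, was the lowest of the batch. The 8 retained members had a median deviation of 0.48 there, the other 48 one of 0.12, and the 26 S phase genes one of -0.62. The astrocyte markers deviated by 1.87 and the oligodendrocyte markers by 1.03 in the same library. Of the 8 retained members, 7 were highest in this library, in which the S phase genes were lowest, while Hist1h4i was at its lowest batch 2 level there, 16 CPM. Without control library 6 the median gRNA difference in batch 2 was -0.01, with 19 of 34 tested members below 0, against -0.21 with it.
The S phase genes themselves had log2 fold changes above 0 in 26 of 26 cases over both batches (median 0.12), with 0 called. In batch 2 alone, which holds control library 6, 26 were above 0 (median 0.25), and in batch 1 alone 14 were above 0 and 12 below (median 0.002). Of the 24 pathway genes, 17 were above 0 (median 0.05), and of the 11 replication-independent histones 10 were below 0 (median -0.09), also with 0 called in either list. Over all genes tested, 52.3% were below 0 over both batches, 51.3% in batch 1 and 49.7% in batch 2. Genes of a list can move together, so these counts are not read as separate results. The part of the differences between libraries in these values was not tested.

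**Figure D5:**
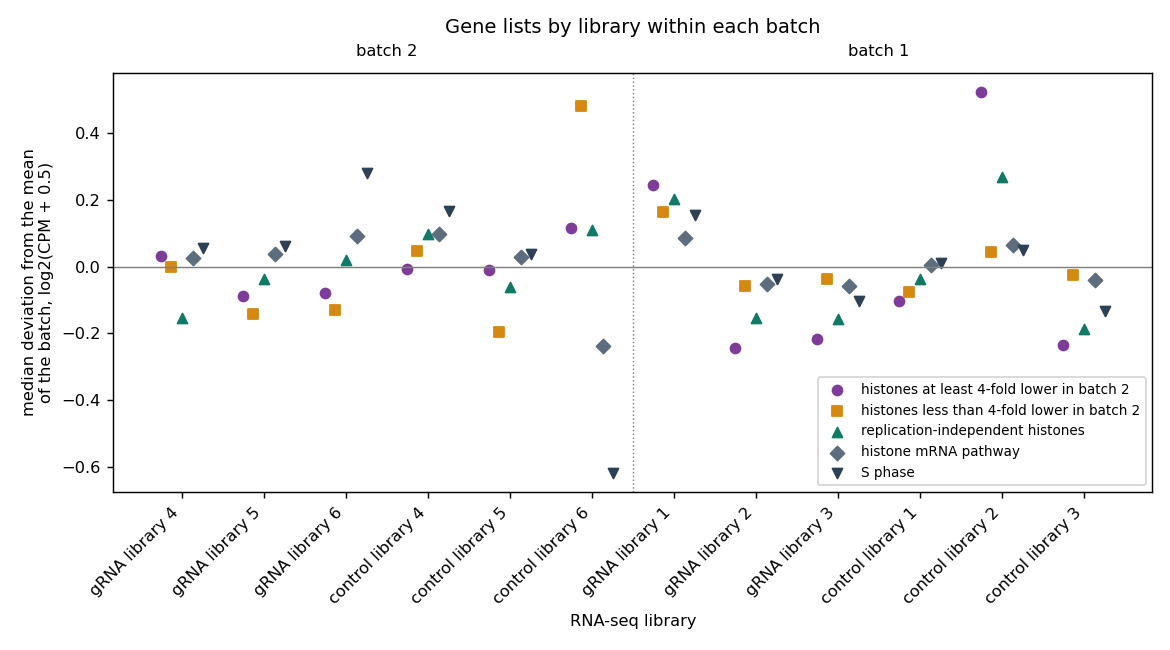
Median deviation of each gene list from its mean in the same batch, on the log2(CPM + 0.5) scale, for each of the 12 libraries. In batch 1 the histones that were at least 4-fold lower in batch 2 are highest in gRNA library 1 (0.25) and control library 2 (0.52). In batch 2 the retained histones are highest (0.48) and the S phase genes lowest (-0.62) in control library 6.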

How the data were processed

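RNA-seq was analysed in 12 libraries. Per the submitters' processing notes, the tools were HTSeq, SAMtools, STAR and Trimmomatic and the build GRCm39, with no role stated; annotation release and strand setting were not given in the sources used here. Values deposited by the authors are unnormalized read counts for each Ensembl gene. Symbols, matched to 51880 genes (90.8%), came from a supplied table of gene names, and RefSeq names, neighbours and promoters (GRCm38.p6) from RefSeq tables. The 5 summary lines of each file were left out of library sizes. Reads without a unique alignment were 1.87% to 2.77% of a library. Many histone genes are near-identical and some overlap, so single members are uncertain. Class sums also leave out reads without a unique alignment.

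Counts were fitted with edgeR 4.0.16 in R 4.3.3: filterByExpr with a minimum count of 10, TMM scaling, the quasi-likelihood test and Benjamini-Hochberg adjustment over all genes at 0.05. The fits covered gRNA against control with batch as a term, each batch alone, their difference as an interaction, and batch 2 against batch 1 with treatment as a term, given without p-values. Replicate numbers follow accession order. CPM used TMM-scaled library sizes, and class sums took all members. Alternatives were DESeq2 1.42.0 (size factors and Wald test), no low-count filter, other thresholds, no batch term and leaving out each library. Scripts were tested on simulated data. Figures used matplotlib 3.10.9 under Python 3.11.15.

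Members and gene lists were chosen with earlier results of these data known. Named members were the 3 with the highest mean CPM of each class in each batch, the 8 highest and 5 lowest log2 fold changes between batches, the 4 smallest p for gRNA against control and the 2 nearest to each side of -2. Members outside this rule are named where a small count is spelled out. The 4 ribosome profiling libraries were not analysed here: the names in their deposited table match no label, and its transcripts could not be tied to genes.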

Additional observations from a re-analysis of the deposited data

Results flagged for a closer look

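Among 66 sets of 6 libraries of 1 batch (27 named members, the 5 class sums and their total, each in both batches), 10 had a library whose distance from the nearest other was large for the range of the set by Dixon's criterion, and chance flags about 1 set in 20. The sets share libraries and the sums contain named members, so the sets are not independent. No excess over chance is read from the count of 10. Of the 10, 7 concerned control library 6 of batch 2. Its H1 sum was 147.5 CPM (others 83.9 to 107.4), its H2B sum 144.4 CPM (others 91.9 to 110.2) and its histone total 360.9 CPM (others 236.1 to 277.6). Single genes high there were Hist1h1c at 131.1 CPM (others 74 to 93.3), Hist1h1e at 7.86 CPM (others 3.45 to 4), Hist1h2ac at 6.12 CPM (others 2.24 to 3.4) and Hist1h3c at 2.26 CPM (others 0.97 to 1.17). In batch 1, Hist1h2bl was 38.2 CPM in control library 2 (others 21.4 to 27.1). In batch 2, Hist1h3e was 1.88 CPM in gRNA library 6 (others 0.555 to 1.02), and Hist2h2ac was 0.279 CPM in gRNA library 4 (others 0.121 to 0.15), a level of a few reads.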

How the results depend on the processing

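Of 595 values under other settings, 586 were marked as unchanged and 9 as moved. None of the 4 members with the smallest p for gRNA against control changed side of the adjusted p threshold. The measure differed by value. Counts were marked as moved past a set fold, medians past the spread between replicates, and single genes between the batches past their SE. For single genes under gRNA against control, only a change of side of the adjusted p threshold was marked. Shifts in the size of those gene values are thus not among the 9. The median log2 fold change of the members between the batches stayed between -4.8 and -4.54 when each library was left out, with 46 to 48 members at least 4-fold lower, and was -4.46 without gRNA library 1 and control library 2. With a threshold of -1 the count was 48, and with -3 it was 45. No member was called for gRNA against control under any setting. Over all genes, testing every gene with at least 1 count gave 1 call over both batches, 1 in batch 1 and 42 for the difference between batches, against 0 with the filter; the cause was not tested. Smaller shifts were those of the batch 1 gRNA median (0.1 without control library 2), of Hist1h2al (4.42 without gRNA library 3) and, without gRNA library 1 and control library 2, of Hist1h2bc (-0.26), Hist1h1c (-0.22) and Hist1h4i (-0.26); ATTTGCAT on the sense strand alone was in 7 windows. No paired analysis was possible because the replicate numbers of the RNA-seq libraries follow accession order and the footprint libraries, whose labels share numbers, could not be mapped; the footprint alternatives were not run. Low depth limits the members under 1 CPM in batch 2.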
